A study of Mus musculus with 9 samples.

Results

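The small leucine-rich proteoglycans are secreted matrix proteins with a small core of leucine-rich repeats that most of them decorate with sulfated sugar chains. They bind collagen fibrils, set how the fibrils pack, and hold growth factors such as TGF-β in the matrix. In bone, biglycan and decorin are among the most abundant proteoglycans of the organic matrix, and mice without biglycan have low bone mass. The 10 genes examined here were chosen by symbol, after the Ensembl identifiers of the count tables had been matched to GRCm38 gene names. All 10 were found among the 39179 genes of the tables. They were Bgn (biglycan), Dcn (decorin) and Aspn (asporin) of class I, Fmod (fibromodulin), Lum (lumican), Prelp and Omd (osteomodulin) of class II, Ogn (osteoglycin) and Epyc (epiphycan) of class III, and Podn (podocan) of class V.

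RNA was sequenced from capillaries cut together with the cells around them from the ossification front (OF) of the femur, the zone under the growth plate where new bone forms. All animals were Tg(TIE2GFP)287Sato/J mice of C57BL/6 origin, in which the Tie2 promoter drives GFP in endothelial cells, and none carried a further allele or treatment by the labels. Juvenile mice were 4 weeks old (n = 5 libraries) and adult mice 12 weeks old (n = 4), and the study treats the libraries of an age as different mice. Many small pieces were pooled for each library, and the endothelial, bone-forming and marrow cells in them were not separated. Library totals were 4856833 to 7398483 counts in the juvenile group and 5821596 to 8077362 in the adult group, so that 3 counts, the lowest level taken as detected, were 0.371 to 0.618 CPM (counts scaled to a common library total). The limit covers counting error only, since PCR copies of a molecule are counted as separate reads.

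All 8 endothelial markers were detected, with a summed level of 540 to 865 CPM in juvenile and 566 to 781 CPM in adult libraries, and 0 of the 8 passed the age test by edgeR. The osteoblast markers made up far more of each library. Their summed level was 170323 to 212158 CPM in juvenile libraries and 63172 to 93344 CPM in adult libraries. The groups did not overlap, and by the test 5 of these 12 markers were higher at 4 weeks and 2 at 12 weeks. Some lists of marrow markers were higher at 12 weeks, and others overlapped between the ages. The summed neutrophil markers were at 5.80 to 64.0 CPM in juvenile and 91.2 to 4301 CPM in adult libraries, and the erythroid markers at 418 to 2555 and 4697 to 36723 CPM, with 7 of 7 called higher in adult libraries in both lists. Macrophage markers were at 479 to 806 and 1011 to 1580 CPM, also without overlap, and 1 of the 6 was called higher in adult libraries. B lineage markers overlapped (36.9 to 57.3 and 21.9 to 243 CPM), with 0 of 6 tested called. Adipogenic marrow stroma markers overlapped too (311 to 472 and 426 to 1196 CPM), with 1 of 7 called in each direction. Juvenile replicates 4 and 5 had 1099 and 978 counts on Y-linked genes and at most 11 on Xist, whereas the other 7 libraries had at least 2965 on Xist and at most 5 on Y-linked genes, so that sex by these genes was mixed at 4 weeks only.

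Across the family, biglycan was the member that passed the age test, and it was 1.67-fold higher at 4 weeks. Lumican, decorin and osteomodulin had higher juvenile means, and osteoglycin, asporin and fibromodulin higher adult means, without passing the adjusted threshold. The ratio of osteomodulin to osteoglycin was higher in each of the 5 juvenile libraries than in any of the 4 adult libraries. It did not pass either, with an exact permutation p of 0.0794 after adjustment over 5 ratios. Taken by themselves, osteoglycin and biglycan also did not overlap between the ages, beside 9.15% of all tested genes. The share of gene pairs without overlap was not computed. Of the 10 members, 7 had enough counts to be tested, and 1 of these 7 (Bgn) was called at an adjusted p under 0.05 by edgeR's quasi-likelihood test, beside 3.88% of the 13418 genes tested (1.99% higher in juvenile and 1.89% higher in adult libraries). An unadjusted p under 0.05 was found for 6 of the 7 members and for 17.3% of all tested genes. The median log2 fold change of the 7 members, juvenile over adult, was 0.49, and that of all tested genes was −0.0066. Called members were 4 of those tested with DESeq2 (Bgn, Lum, Ogn and Aspn, beside 9.47% of genes), 3 with at least 10 counts in every library (Bgn, Lum and Ogn, beside 6.57%) and 2 with limma voom (Bgn and Lum, beside 3.43%).

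Most of the members lie in short chromosomal runs of the family. Dcn (GRCm38 chr10:97479609-97518143), Lum (chr10:97565128-97572703) and Epyc (chr10:97644068-97682454) follow each other on the plus strand, with Kera, the keratocan gene, between Lum and Epyc. Aspn (chr13:49544443-49567565), Omd (chr13:49582462-49592822) and Ogn (chr13:49608046-49624501) form a second run on the plus strand, with gaps of 14896 and 15223 bases. This second run lies inside the span of Cenpp, a centromere protein gene on the opposite strand, which shares 7 exon bases with Aspn and 0 with Omd and Ogn. Prelp (chr1:133910304-133921414, minus strand) and Fmod (chr1:134037254-134048277, plus strand) are 115839 bases apart. Bgn (chrX:73483602-73495933, plus strand) and Podn (chr4:108014791-108096445, minus strand) have no family neighbour among the 10.

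The promoter sequence is shown for Bgn, as the member that was called, and for the neighbours Omd and Ogn. The ratio of these 2 did not overlap between the ages but did not pass after adjustment. These are the 250 bases before the RefSeq start site in GRCm38.p6, on the plus strand, at chrX:73483351-73483600, chr13:49582212-49582461 and chr13:49607765-49608014. Capitals mark matches on either strand to the TATA box (TATAAA), the Runx motif (TGTGGT), the AP-1 motif (TGANTCA) and the GC box (GGGCGG), and overlapping matches run together.
Bgn: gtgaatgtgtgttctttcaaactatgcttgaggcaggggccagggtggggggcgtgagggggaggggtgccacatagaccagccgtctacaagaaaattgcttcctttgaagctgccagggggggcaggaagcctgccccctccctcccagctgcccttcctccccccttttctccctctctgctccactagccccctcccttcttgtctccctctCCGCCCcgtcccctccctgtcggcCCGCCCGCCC
Omd: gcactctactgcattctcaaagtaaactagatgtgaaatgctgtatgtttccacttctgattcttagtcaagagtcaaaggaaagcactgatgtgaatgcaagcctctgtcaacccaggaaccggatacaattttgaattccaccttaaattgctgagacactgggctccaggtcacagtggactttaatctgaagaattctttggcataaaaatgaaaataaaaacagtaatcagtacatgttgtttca
Ogn: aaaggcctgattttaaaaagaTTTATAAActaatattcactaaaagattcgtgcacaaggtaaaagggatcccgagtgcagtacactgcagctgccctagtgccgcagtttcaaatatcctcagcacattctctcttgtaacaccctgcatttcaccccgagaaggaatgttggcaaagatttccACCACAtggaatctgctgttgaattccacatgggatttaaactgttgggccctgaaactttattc
The Bgn window was 64.4% G and C and held 3 GC-box matches, all read on the opposite strand and starting 34, 10 and 6 bases before the start site. The Omd window was 38.4% G and C and held 0 matches to the 4 motifs. The Ogn window was 42.0% G and C and held 2 overlapping TATAAA matches, on both strands, at 227 and 229 bases before the start, and 1 Runx match on the opposite strand at 65 bases. Among the 32817 windows of this length in the RefSeq table, 12.4% held TATAAA, 14.04% TGTGGT, 6.75% TGANTCA and 32.7% GGGCGG. These matches describe letters and not sites in use. Windows were found for 8 of the 10 members.

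Biglycan is a class I proteoglycan with chondroitin or dermatan sulfate chains that takes part in osteoblast differentiation and in fibril assembly. Normalized counts, in which each library is rescaled by its TMM effective size to a common depth, were 7814, 9661, 9176, 11701 and 11112 for Bgn in juvenile replicates 1 to 5. In adult replicates 1 to 4 they were 7387, 6357, 4884 and 5005. The lowest juvenile library (replicate 1) was just above the highest adult library (replicate 1), so the ages did not overlap, and juvenile replicates 4 and 5 were the highest. Of the 7 tested members, 2 (Bgn, and Ogn in the opposite direction) did not overlap between the ages, beside 9.15% of all tested genes (5.07% higher in juvenile and 4.08% in adult libraries).

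The means of Bgn were 9893 ± 1553 in juvenile (SD, n = 5) and 5908 ± 1191 in adult libraries (SD, n = 4). The log2 fold change was 0.74 ± 0.18 (SE; 95% confidence interval 0.36 to 1.12; adjusted p = 0.0355). Over the 11 alternative settings in which no library was left out singly, the adjusted p ranged from 0.00215 to 0.279, and the call was kept in 8. Among other settings, it was lost when juvenile replicates 4 and 5, the ones with Y-linked counts, were both set aside (log2 fold change 0.59, adjusted p = 0.228), with the mean of the osteoblast markers as a covariate (0.61, adjusted p = 0.279), and when adult replicate 3 or 4 or juvenile replicate 2, 3, 4 or 5 was left out (0.64 to 0.77, highest adjusted p = 0.0996). The osteoblast covariate was the mean log2 CPM of the 12 osteoblast markers, Col1a1 and Col1a2 among them. Their summed level did not overlap between the ages, so a fit with it cannot tell age from osteoblast content, here or for the genes below. Fewer cells of a type and less RNA per cell cannot be told apart in such bulk samples, for Bgn or for any gene described here.

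Decorin, the nearest relative of biglycan, carries a chain of the same kind and binds type I collagen and TGF-β. Dcn had 8129.7, 10595, 11101, 13971 and 13475 normalized counts in juvenile replicates 1 to 5, and 8723, 8140.1, 10008 and 5702 in adult replicates 1 to 4. Juvenile replicate 1 lay below 3 of the 4 adult libraries, and the ages overlapped. Juvenile replicates 4 and 5 were the highest of the 9 libraries, as for Bgn. For Dcn the log2 fold change was 0.49 ± 0.20 (SE; 95% confidence interval 0.06 to 0.92; adjusted p = 0.211). It was 0.16 with the osteoblast markers as a covariate (adjusted p = 0.830) and 0.29 without juvenile replicates 4 and 5 (adjusted p = 0.707).

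Lumican is a class II member with keratan sulfate chains that limits the width of collagen fibrils. Lum had 3925, 3998, 3341, 3747 and 4338 normalized counts in juvenile replicates 1 to 5, and 3655, 1807, 1285 and 1509.8 in adult replicates 1 to 4. The juvenile libraries lay close together, with a coefficient of variation of 9.44%, and the adult libraries were spread more widely (52.4%). Adult replicate 1 was inside the juvenile range, while the other 3 adult libraries were below every juvenile library. The juvenile to adult log2 fold change was 0.91 ± 0.27 (SE; 95% confidence interval 0.33 to 1.49; adjusted p = 0.0820). Without adult replicate 1 it was 1.32, with an adjusted p of 0.00358, and with any other single library left out the adjusted p was 0.123 to 0.190. With the osteoblast markers as a covariate it was 0.44, with an adjusted p of 0.598.

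**Figure D1:**
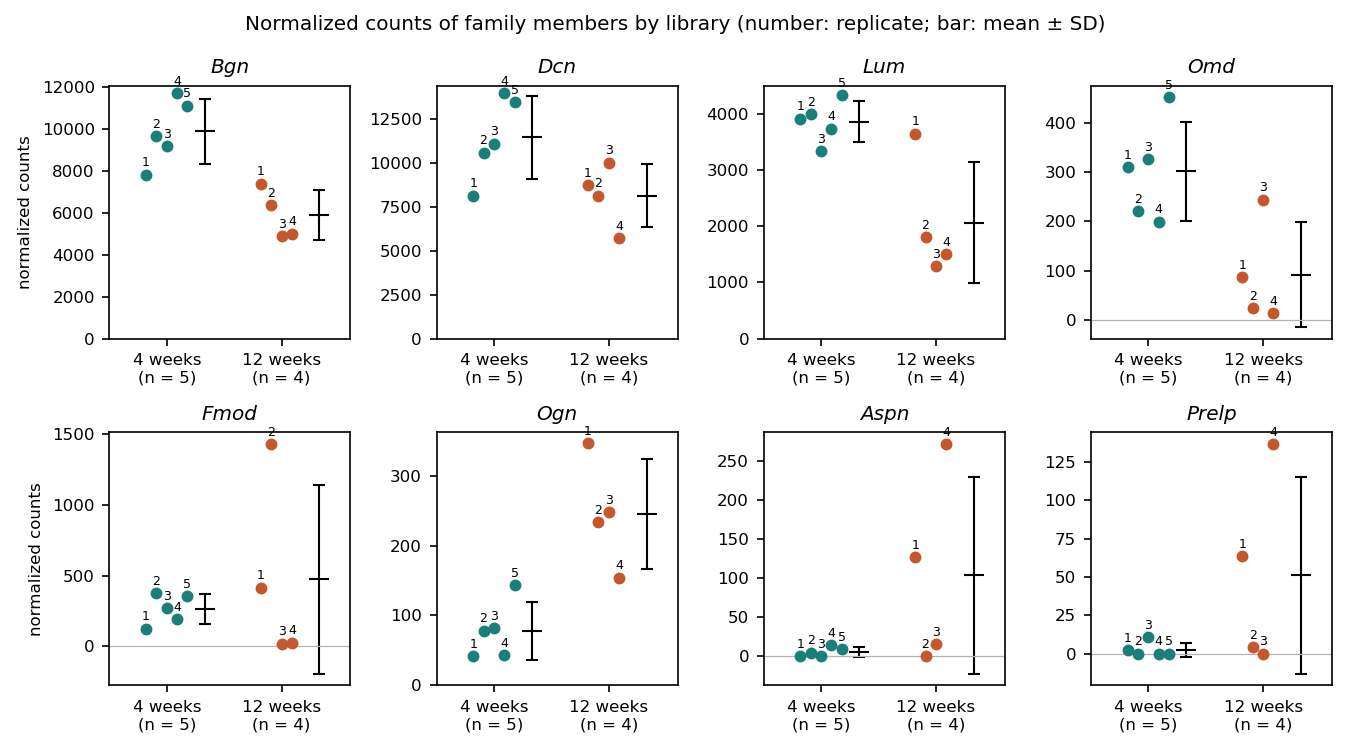
Normalized counts of 8 members in each library, by age (4 weeks, n = 5; 12 weeks, n = 4), with a separate linear axis for each gene. Points are libraries with the replicate number, and bars show mean ± SD, which can reach below 0. Bgn was higher in all 5 juvenile libraries, Ogn in all 4 adult libraries, and the adult points of Fmod, Aspn and Prelp were spread widely.

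Osteomodulin and osteoglycin are neighbours on chromosome 13 and belong to different classes of the family. Osteomodulin is a keratan sulfate proteoglycan made by osteoblasts that binds collagen and hydroxyapatite. Osteoglycin is a class III member, also known as mimecan, that is secreted by osteoblasts and other connective tissue cells. The mean was higher in juvenile libraries for Omd and in adult libraries for Ogn.

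Omd had 309, 221, 326, 199 and 451 normalized counts in juvenile replicates 1 to 5, and 86.3, 24.1, 244 and 13.4 in adult replicates 1 to 4. Adult replicate 3 was inside the juvenile range, and the other 3 adult libraries were below it. Its log2 fold change was 1.71 ± 0.68 (SE; 95% confidence interval 0.24 to 3.17; adjusted p = 0.201). Without adult replicate 3 it was 2.83, with an adjusted p of 0.0323, and with any other single library left out the adjusted p was 0.246 to 0.373. With the osteoblast markers as a covariate it was 0.09, with an adjusted p of 0.972.

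Ogn had 41.0, 77.8, 81.5, 42.4 and 144 normalized counts in juvenile replicates 1 to 5. It had 347, 234, 248 and 154 in adult replicates 1 to 4. Every adult library was above every juvenile library, though adult replicate 4 and juvenile replicate 5 were close. The adult mean was 3.18 times the juvenile mean (246 ± 79.1, n = 4, against 77.3 ± 41.7, n = 5, SD). The log2 fold change was −1.67 ± 0.44 (SE; 95% confidence interval −2.62 to −0.72; adjusted p = 0.0538), just above the threshold. Without juvenile replicate 5 it was −2.02, with an adjusted p of 0.0401, and with any other single library left out the adjusted p was 0.0535 to 0.127. With the osteoblast markers as a covariate the log2 fold change was −2.16, with an adjusted p of 0.114.

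Within a library, the ratio of Omd to Ogn does not depend on scaling between libraries. There were 7.26, 2.79, 3.93, 4.53 and 3.11 Omd counts per Ogn count in juvenile replicates 1 to 5, on CPM with a small count added. There were 0.253, 0.111, 0.981 and 0.0982 in adult replicates 1 to 4. All adult values were below all juvenile values, and adult replicate 3 was close to equal, with 314 Omd and 320 Ogn counts. Per kilobase of exon, the ratio was 3.24 to 8.62 in juvenile libraries and 1.12 in adult replicate 3, against 0.0990 to 0.284 in the other adult libraries. The mean log2 ratio was 2.03 ± 0.54 in juvenile and −2.13 ± 1.53 in adult libraries (SD), a difference of 4.16. A two-sided exact permutation test gave p = 0.0159, the smallest that 5 against 4 libraries allow, and 0.0794 after Benjamini-Hochberg adjustment over the 5 ratios examined.

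The other 4 ratios had unadjusted exact permutation p-values of 0.175 to 0.889. Bgn stayed close to Dcn, with a mean log2 ratio of −0.20 ± 0.10 in juvenile and −0.45 ± 0.39 in adult libraries (SD). Adult replicate 3 had the lowest Bgn to Dcn ratio, −1.03. Lum to Dcn was −1.54 ± 0.33 against −2.07 ± 0.70, a juvenile difference of 0.53 that did not pass. Fmod to Lum and Ogn to Aspn overlapped broadly, and the sign of their differences turned when single libraries were left out.

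**Figure D2:**
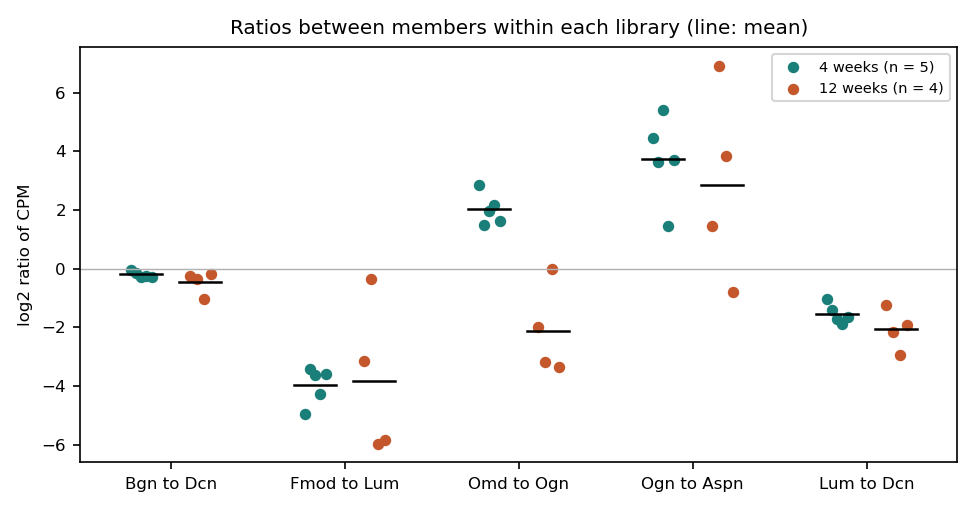
Log2 ratios between pairs of members within each library, on CPM, with points for libraries and lines for the mean of each age (4 weeks, n = 5; 12 weeks, n = 4). The Omd to Ogn ratios lay between 1.48 and 2.86 at 4 weeks and between −3.35 and −0.03 at 12 weeks, and the other 4 ratios overlapped between the ages.

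Fibromodulin, a class II member of tendon and cartilage that binds the same collagen site as lumican, had no single direction. Fmod had 124, 375, 267, 191 and 355 normalized counts in juvenile replicates 1 to 5. In adult replicates 1 to 4 it had 414, 1431, 18.6 and 24.4. Adult replicates 1 and 2 were above every juvenile library, and adult replicates 3 and 4 were below every one. The highest adult library was 76.8 times the lowest, against 3.03 times in the juvenile group. Its log2 fold change was −0.84 ± 0.91 (SE; adjusted p = 0.727) and turned to 0.76 without adult replicate 2.

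Epiphycan, a class III proteoglycan of growth plate cartilage, was counted in the same adult library. Epyc had 89.1 normalized counts (85 counts) in adult replicate 2, 6.65 (5 counts) in juvenile replicate 5, and 0 in the other 7 libraries. It did not pass the filter on low counts, and without that filter its log2 fold change was −3.99 with an adjusted p of 0.337. Of its exon bases, 40.6% (1041) overlap Gm10754, a long non-coding RNA gene on the opposite strand. The library preparation does not mark strand, and reads of these 2 genes cannot be told apart there.

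Adult replicate 2 also had the highest levels of the cartilage genes Col2a1, Comp and Acan, which are among the 11 chondrocyte markers. Comp and Acan were chosen after their values were seen, and the other markers of that list are not shown by library. Col2a1, the main collagen of cartilage, was at 3117 CPM there and at 528 to 867 CPM in the other adult libraries. Comp, a cartilage and tendon matrix protein, was at 484 CPM there and at 5.89 to 56.3 CPM in the other adult libraries. Acan was at 125 CPM there. In adult replicates 1, 3 and 4, Acan was at 4.62, 0 and 46.2 CPM, and Fmod at 65.9, 2.97 and 3.88 CPM, in a different order. The summed level of the 11 chondrocyte markers was 6382 CPM in adult replicate 2, of which Col2a1 was 3117 and Comp 484 CPM. It was 2028 to 2466 CPM in the other adult libraries and 2463 to 3704 CPM in juvenile libraries. Of these markers, 0 stayed at or under the floor in every library. Of the 8 tested, 1 was called higher in juvenile and 2 in adult libraries, beside 1.99% and 1.89% of all tested genes. The part of cartilage content in the Fmod and Epyc values was not tested.

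**Figure D3:**
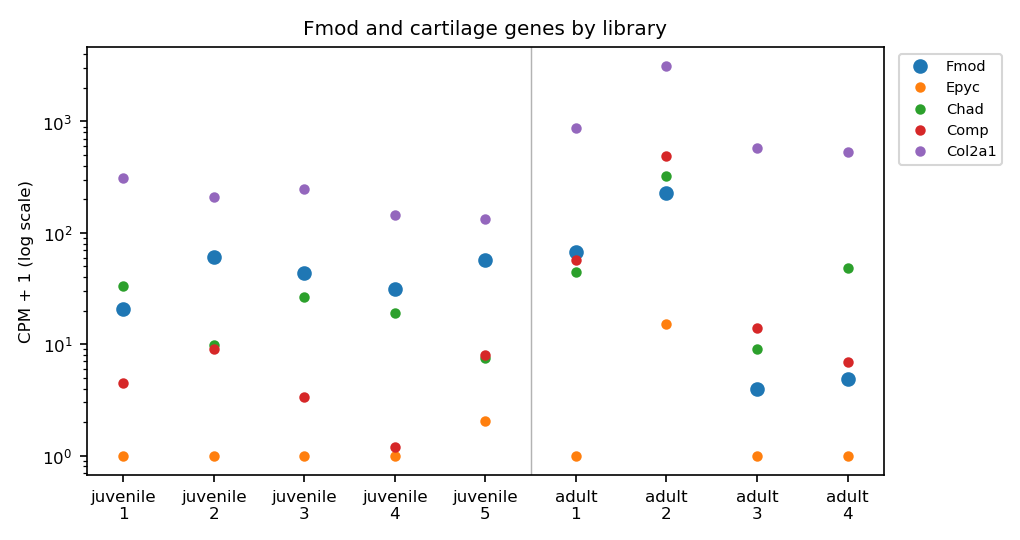
Fmod, Epyc and the cartilage genes Chad, Comp and Col2a1 in each of the 9 libraries, as CPM with 1 added on a log axis. Adult replicate 2 was the highest library for all 5 genes, with 228 CPM of Fmod and 3117 CPM of Col2a1.

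Asporin and PRELP were counted mainly in a pair of adult libraries. Asporin is a class I member with an aspartate-rich end and no sugar chain site like that of biglycan, and it binds collagen and TGF-β. Aspn had 126 normalized counts in adult replicate 1 and 271 in adult replicate 4, against 0 and 15.5 in adult replicates 2 and 3. The juvenile libraries had 0, 4.52, 0, 14.1 and 9.31. The log2 fold change was −4.18 ± 1.47 (SE; 95% confidence interval −7.36 to −1.003; adjusted p = 0.143), and with several libraries at 0 its size depends on the count added.

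PRELP anchors basement membranes to connective tissue. Prelp had 63.8 and 137 normalized counts in adult replicates 1 and 4, and 4.19 and 0 in adult replicates 2 and 3. The juvenile libraries had 2.28, 0, 10.7, 0 and 0, and Prelp did not pass the filter on low counts. Without that filter its log2 fold change was −4.30 with an adjusted p of 0.213, and with DESeq2 −4.35 with an adjusted p of 0.0971. Gm15851, an antisense gene, overlaps 9.68% of its exon bases. In the same adult replicates 1 and 4, the summed megakaryocyte markers were 605 and 4211 CPM, against 97.9 and 62.4 CPM in replicates 2 and 3, and pericyte or smooth muscle markers were 614 and 535 CPM, against 322 and 280.2 CPM. Macrophage markers were 1580.5 and 1271 CPM there, against 1011 and 1143 CPM. Adipogenic marrow stroma markers were 943 and 1196 CPM, against 426 and 1063 CPM, so replicate 3 was above replicate 1. Skeletal muscle markers were 13.6 and 7.77 CPM in replicates 1 and 4, against 0 and 3.59 CPM. Neutrophil markers were 4301 and 3480.2 CPM, against 91.2 and 3472.9 CPM, so replicate 3 was close to replicate 4. Several other lists did not set replicates 1 and 4 above the rest. Among them were erythroid (7874 and 36723 against 4697 and 11205 CPM), B lineage (96.7 and 79.3 against 21.9 and 243 CPM) and osteoclast markers (17726 and 13275 against 17363 and 20093 CPM). The summed markers of tendon or fibrous tissue were at 47.9 to 62.9 CPM in juvenile and 6.47 to 20.3 CPM in adult libraries, with Clec3b at 0. The part of these cell types in the Aspn and Prelp values was not tested. Podn had 0 counts in all 9 libraries, which allows up to 0.371 to 0.618 CPM of the library total.

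**Figure D4:**
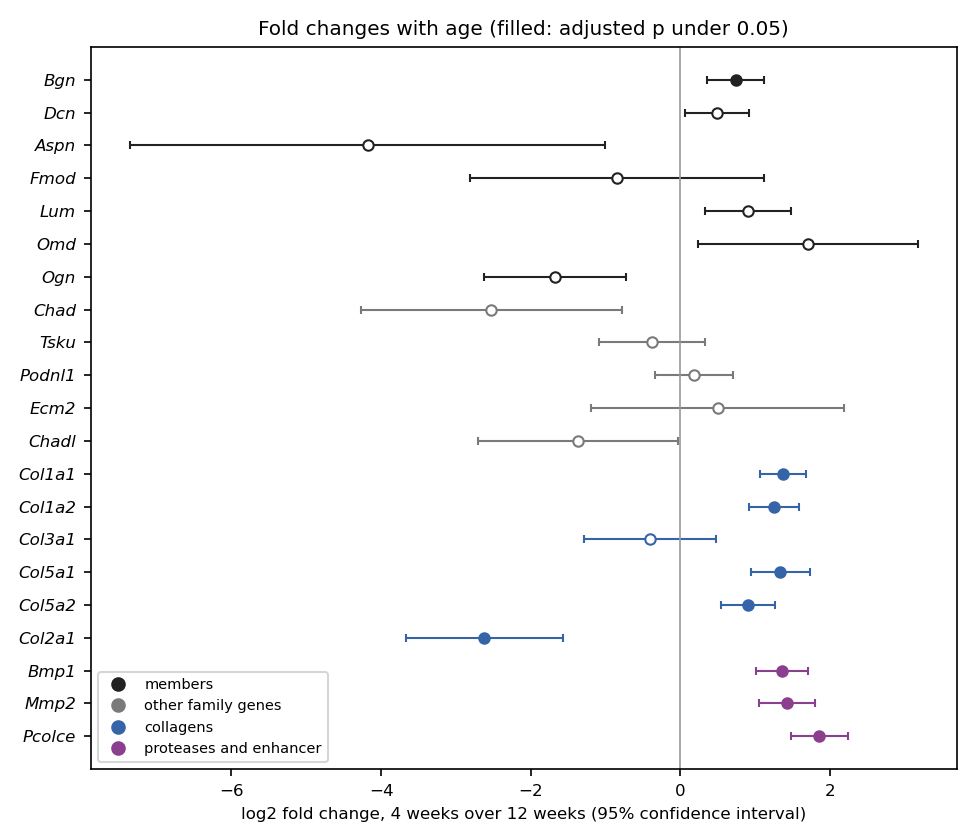
Log2 fold changes, 4 weeks over 12 weeks, with 95% confidence intervals, for the 7 tested members, 5 other family genes, 6 fibrillar collagens, and a group of proteases and an enhancer. Filled points passed an adjusted p of 0.05 in edgeR. Bgn (0.74) was the member that passed, below the collagen chains Col1a1 (1.37) and Col5a1 (1.34).

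Levels of different genes were compared as CPM per kilobase of exon. On the union of all exons, Dcn was first with 313 ± 64.5 in juvenile and 222 ± 49.3 in adult libraries (SD). Bgn (258 ± 40.6 and 154 ± 31.1) and Lum (252 ± 23.8 and 134 ± 70.4) followed, and the ranges of these 3 genes overlapped at both ages. In every library they were above the rest of the family. Below them were Omd (21.3 and 6.51), Fmod (12.7 and 22.7), Ogn (4.80 and 15.3) and Aspn (0.379 and 6.99), with Prelp, Epyc and Podn last. The ranges of Omd and Fmod and of Fmod and Ogn overlapped at both ages, and Aspn was below Ogn in every juvenile library.

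The order of the top members depends on the length used, since the Bgn exons of all transcripts add up to 6099 bases and its longest transcript to 2666. By longest transcript, Bgn was first with 46.4% of the family total in juvenile and 43.2% in adult libraries, and Dcn had 30.4% and 34.1%. By union of exons, Dcn had 36.0% and 39.9%, Bgn 29.9% and 27.5%, and Lum 29.5% and 23.0%. Among 13282 genes ranked by level per union exon length, Bgn was between rank 237 and 421 in the adult libraries and no lower than rank 219 in the juvenile libraries.

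The share of Ogn in the family total was 0.275% to 0.893% in juvenile and 2.27% to 2.97% in adult libraries. Omd made up 1.47% to 3.20% in juvenile and 0.225% to 3.33% in adult libraries. Dcn reached 52.6% in adult replicate 3, and Fmod 11.6% in adult replicate 2. Without regard to length, the 10 members took 0.389% ± 0.0543 of all counts in juvenile and 0.289% ± 0.0533 in adult libraries (SD).

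**Figure D5:**
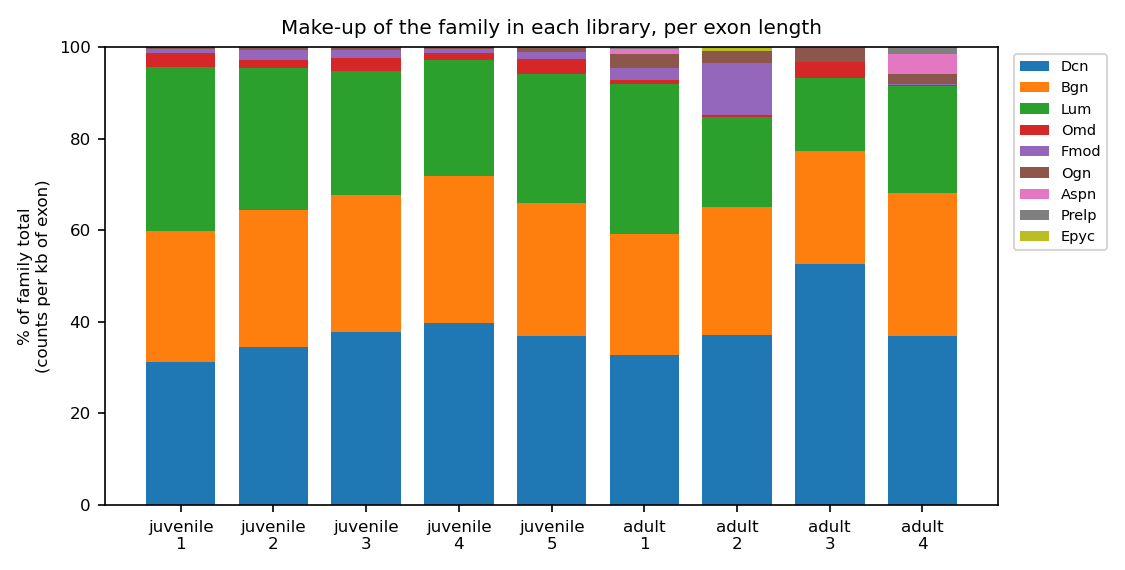
Stacked bars of the share of each member in the family total of a library, in percent, on counts per kilobase of union exon. Dcn, Bgn and Lum filled most of every bar, Fmod took 11.6% in adult replicate 2, and the Ogn share was at least 2.27% in every adult library and at most 0.893% in every juvenile library.

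The family was also set against type I collagen, the protein that these proteoglycans bind in bone. Per 100 counts on Col1a1 there were 2.09 ± 0.30 Bgn counts in juvenile and 3.22 ± 0.42 in adult libraries (SD), without overlap. For Dcn there were 2.42 ± 0.47 and 4.44 ± 0.86, also without overlap. For Lum there were 0.816 ± 0.061 and 1.11 ± 0.50, with overlap. On this scale 42.2% of the other tested genes were higher in adult libraries without overlap and 0.477% higher in juvenile libraries, and Col1a1 itself was lower at 12 weeks. Bgn and Dcn were therefore among a large share of genes with higher adult values per Col1a1 count, in the opposite direction from the scaling over all genes. Such ratios show unequal change and do not tell which gene changed.

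Of the 37 genes that bind the family, 33 were tested. By the test, 5 were higher at 4 weeks and 2 at 12 weeks, beside 1.99% and 1.89% of all tested genes. Their median log2 fold change was 0.05. The juvenile genes were 4 collagen chains and the endocytic receptor of decorin, Lrp1 (0.84 ± 0.19 SE, adjusted p = 0.0292). The collagen chains Col1a1 (1.37 ± 0.14), Col1a2 (1.25 ± 0.15), Col5a1 (1.34 ± 0.18) and Col5a2 (0.91 ± 0.17) had adjusted p-values of 0.000426 to 0.0118. Col3a1 had −0.41 ± 0.41 and an adjusted p of 0.702. Col2a1 (−2.62 ± 0.48, adjusted p = 0.0118) and Tlr2, an innate receptor that soluble biglycan engages (−3.17 ± 0.76, adjusted p = 0.0380), were higher in adult libraries. Without adult replicate 2, Col2a1 was at −1.69. With single libraries left out, the calls of Lrp1 and Tlr2 were kept in 2 of 9 fits each, without adult replicate 2 or juvenile replicate 1, and lost in the other 7, with adjusted p-values up to 0.0806 and 0.0902. Tlr2 is also made by myeloid cells, whose neutrophil and macrophage markers were higher in adult libraries, and their part in its value was not tested. With the osteoblast covariate or with juvenile replicates 4 and 5 set aside, Lrp1, Tlr2, Col2a1 and Col5a2 were not called. Col5a1 was not called with that covariate (adjusted p = 0.0767). Of the 9 tested growth factors, 0 were called at an adjusted p under 0.05 by edgeR and 3 had an unadjusted p under 0.05, among them Tgfb3 (1.38 ± 0.40, adjusted p = 0.0777) and Tgfb1 (0.74 ± 0.25, adjusted p = 0.132).

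Of 11 genes for proteases of the family and their enhancer, 8 were tested and 3 were higher in juvenile libraries, beside 1.99% of all tested genes. Their median log2 fold change was 0.91. Bmp1, which removes the propeptide of biglycan, had 9507 ± 1624 normalized counts in juvenile and 3709 ± 331 in adult libraries (SD; log2 fold change 1.36 ± 0.16 SE, adjusted p = 0.00106). Pcolce, the enhancer of procollagen cleavage by BMP1, had 1.86 ± 0.18 (SE, adjusted p = 0.000206), and the gelatinase Mmp2 had 1.42 ± 0.17 (SE, adjusted p = 0.00109). The 3 genes did not overlap between the ages, beside 5.07% of all genes higher in juvenile libraries without overlap.

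All 35 genes for enzymes and carriers that build the sulfated chains were tested, and 1 was called, beside 3.88% of all genes. Chst11, a chondroitin 4-sulfotransferase, was higher in juvenile libraries, with 716 ± 217 against 262 ± 41.7 normalized counts (SD), a log2 fold change of 1.45 ± 0.27 (SE) and an adjusted p of 0.0121. Among other settings, it was not called with the osteoblast covariate (adjusted p = 0.146) or without juvenile replicates 4 and 5. The log2 fold change was above 0 for 24 of the 35 genes and below 0 for 11, and the share of all tested genes above 0 was not computed. The median was 0.40, against −0.0066 for all tested genes. By role it ran from 0.02 for chondroitin chain genes to 0.67 for linkage region genes. The 7 linkage region genes were above 0 and none passed, and 3 of them (Xylt1, B3gat3 and Fam20b) turned below 0 with a single library left out. Values that did not pass included Chpf2 (0.71, adjusted p = 0.0690) and Chsy1 (0.61, 0.148) of chain polymerisation, Pxylp1 (1.42, 0.117) and B4galt7 (0.80, 0.195) of the linkage region, and B4galt1 (0.68, 0.0689) and Chst2 (0.89, 0.155) of keratan sulfate. Impad1 (0.82, 0.102) and Slc35b2 (0.46, 0.192), listed under sulfate donor and transport, did not pass either. Nor did the dermatan epimerases Dsel (0.82, 0.429) and Dse (−0.41, 0.833).

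Of 9 further genes of the extended family, 5 were tested and 0 were called at an adjusted p under 0.05 by edgeR, while 2 had an unadjusted p under 0.05. Chad (chondroadherin, a cartilage protein) had −2.53 ± 0.81 (SE, adjusted p = 0.106) and was at 323 CPM in adult replicate 2, against 8.04 to 47.6 CPM in the other adult libraries. Chadl, a relative of chondroadherin, had −1.36 ± 0.62 (SE, adjusted p = 0.276). Tsku (tsukushi), Podnl1 and Ecm2 had −0.38, 0.18 and 0.50, with adjusted p-values of 0.636, 0.785 and 0.832. Kera and Nepn had 0 counts in all libraries, and Optc and Nyx had at most 6 counts in any.

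The genes with the most similar pattern were found for each tested member from log2 CPM centred on the mean of the gene, over the 9 libraries, by the root mean square difference. For Bgn they were Ipo9, Copa and Emilin1, at 0.14 to 0.15 on the log2 scale, where Bgn itself varied by 0.44 around its mean. For Dcn they were Ppp1cb, Eif1a and Gm15710 (0.11 to 0.13), and for Lum Adam12, Pbx2 and Mon2 (0.18 to 0.21). For Omd they were Rab40b, Adamts4 and Fabp3 (0.48 to 0.56), and for Ogn Nampt, Anxa4 and Bag2 (0.40 to 0.45). For Fmod they were Gm24853, Pcdh19 and Gm10575 (0.53 to 0.82), and for Aspn Cnr2, Ms4a7 and Slc2a4 (0.99 to 1.13). None of these nearest genes was another member, and the libraries shared by all genes set part of such likeness.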

How the data were processed

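The authors sequenced SMART-Seq libraries, mapped the reads to mm10 with TopHat2 and Bowtie2 and, per the submitters' processing notes, used featureCounts. The deposited values are whole-number counts per gene, without normalization. Versions of these mapping and counting tools, the strand setting and the annotation release are not given in the sources used here. Symbols and positions came from GENCODE for GRCm38 (37693 of 39179 identifiers), and promoters from RefSeq.

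The age comparison used edgeR 4.0.16 in R 4.3.3 (filterByExpr, TMM, quasi-likelihood test, no covariate, Benjamini-Hochberg adjustment over all 13418 tested genes). DESeq2 1.42.0, which the study names, and limma 3.58.1 were alternatives, with other scalings, filters, thinning and libraries left out. Ratios used CPM with a prior count of 2 and exact permutation tests. The fitting code was also run on simulated counts with known fold changes. That simulation did not hold the sex mix or the cell content differences of these data, so it does not vouch for the calls. The 36 pairs of libraries were checked and none were copies.

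The members, lists and tests were chosen with earlier results of these data known. The genes named are all members, the tested genes of the extended family, the called genes of the other lists with otherwise up to 2 per role by smallest p, and the 3 nearest genes of each tested member. Col3a1, Comp, Acan, Cenpp, Xylt1, B3gat3 and Fam20b were chosen after their values or positions were seen. So were the marker lists set beside Aspn and Prelp, the ratios to Col1a1 and the promoters shown. A planned display of promoters for members called together had only 1 called member.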

Additional observations from a re-analysis of the deposited data

Results flagged for a closer look

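In 9 of 90 groups of libraries, the highest library stood apart from the rest of its age by Dixon's criterion. The groups covered 38 genes named in the report, the 5 ratios and 3 shares of the family total. Chance alone gives about 4.5 for independent, normally distributed groups. These groups share libraries, and Epyc was at 0 in all but 1 library of each age, so the 9 cannot be read as an excess. Adult replicate 2 accounted for 5 of the 9. In that library, in normalized counts, Epyc was at 89.1 (0 in the other 3 adult libraries), Chad at 2028 (50.5 to 299 in the others), Col2a1 at 19566 (3316 to 5440.4), Chsy1, a chondroitin synthase, at 826 (482 to 540.5), and Lrp1 at 1412 (809 to 900.4). Tlr2 was at 189 in adult replicate 1, against 73.9 to 88.5 in the other adult libraries. In the juvenile group, Prelp was at 10.7 in replicate 3 (0 to 2.28 in the others), Epyc at 6.65 in replicate 5 (0 in the others) and Tgfb1 at 618 in replicate 2 (347 to 386). The Epyc and Prelp values of the juvenile libraries rest on 5 and 8 counts.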

How the results depend on the processing

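With 5 and 4 libraries, calls moved with the setting. The main test called 520 genes, 1 member and 11 genes of the other lists. DESeq2 called 1490, 4 and 18. Setting aside juvenile replicates 4 and 5, with Y-linked counts, gave 73, 0 and 6, and the osteoblast covariate gave 118, 0 and 5. The summed osteoblast markers did not overlap between the ages, so the fit with that covariate cannot tell age from osteoblast content. A minimum of 10 counts in every library gave 3 members and limma voom 2. With single libraries left out, the counts were 262 to 651 genes, 0 to 2 members and 9 to 12 genes of the other lists. The cause was not tested.

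The labels do not give the replicate number as a pairing, and it was not taken as one. Deviations of same-numbered libraries from their age means had correlations of −0.0318 to 0.0303. Of the 4 juvenile libraries compared, 3 had their best match at their own number, so this check does not exclude a shared batch. With the replicate block, 89 genes, 0 members and 6 genes of the other lists were called, and Bgn had a log2 fold change of 0.71 and an adjusted p of 0.183. The direction of Fmod turned with the block (0.64) and with limma voom (1.25), and ranged from −1.26 to 0.76 with single libraries left out. The ratio differences ranged from −0.87 to 1.005 for Fmod to Lum and from −0.34 to 2.24 for Ogn to Aspn, from 3.76 to 4.86 for Omd to Ogn, from 0.06 to 0.34 for Bgn to Dcn and from 0.24 to 0.80 for Lum to Dcn.

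By longest transcript in place of union exons, Bgn took 46.4% (juvenile) and 43.2% (adult) of the family total, Dcn 30.4% in juvenile libraries, and Lum 20.1% and 15.8%. Apart from Fmod, the tested members kept their direction in every setting of the age test. The ratio to Col1a1 is not such a setting, and there Bgn and Dcn were higher in adult libraries. Prelp and Epyc were tested only in settings with another filter or other libraries, and neither passed. Podn, with 0 counts, could not be compared.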
